A study of Homo sapiens with 6 samples.

Results

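The inflammatory cytokines and CXC chemokines described here are 10 genes, IL1A, IL1B, IL6, CXCL1, CXCL2, CXCL3, CXCL8, CSF2, LIF and IL11. They were taken by symbol from the deposited table, which holds 15706 genes, and all 10 were present. The cells were MDA-MB-231, an established line from a human breast cancer without hormone receptors. RNA-seq was made from 3 control libraries, whose guide RNA was non-targeting, and from 3 libraries labelled as a knockout of MLL3 (KMT2C), a histone methyltransferase that acts at enhancers. Culture was in DMEM with serum for all of them, and the labels name no treatment. The labels number guides and biological replicates 1 to 3 together in each group and do not say whether the numbered guides differed in sequence or whether cells were clones or pools. Guide, culture and library can therefore not be told apart for any single replicate, and p-values measure the spread between these samples.

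Interleukin-1 alpha and beta, encoded by IL1A and IL1B, act through the receptor IL1R1 with IL1RAP and switch on NF-kappaB and AP-1. Those factors, with C/EBP proteins, induce IL6, the neutrophil-attracting chemokines CXCL1, CXCL2, CXCL3 and CXCL8, and CSF2, which encodes the growth factor GM-CSF. IL-6, LIF and IL-11 belong to a cytokine family that signals through the shared receptor chain gp130 (IL6ST) to JAK kinases and STAT3. The mRNAs of most of these genes are short-lived, because proteins that bind AU-rich or stem-loop elements promote their decay. MDA-MB-231 cells are known for secreting several of these cytokines without stimulation.

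Libraries held 41240265 to 49514464 recovered reads in the listed genes, and control replicate 1 had 41240265, close to the 41401044 of knockout replicate 1. KMT2C itself stood at 1255 to 1379 normalized read counts (reads divided by a size factor of the library) in the control libraries and 1339 to 1660 in the libraries labelled knockout, so its transcript gave no check of the label. Markers of the line were abundant, with VIM at 20718 to 24497 and CD44 at 17394 to 19463 counts. Of 6 hormone receptor and luminal genes held to be low or absent in the line 3 were listed. CDH1 was read at 2.11 to 7.52 counts, but GATA3 at 426 to 674 and ERBB2 at 4581 to 6016. ESR1, PGR and FOXA1 were not listed. Of 12 leukocyte markers 8 were listed. They summed to 924, 988 and 1122 counts in control replicates 1, 2 and 3 and to 625 to 764 in the knockout libraries. LYZ stood at 1.07 to 10.8 counts. CD14, which encodes an endotoxin co-receptor of monocytes, was read at 194, 410 and 482 counts in control replicates 1, 2 and 3 and at 197 to 222 in the knockout libraries. That order of libraries was much like that of several cytokines below (log2 fold change -0.69, limma adjusted p = 0.032). With a trend of all genes along GC content and transcript length removed, CD14 did not pass (-0.46, limma adjusted p = 0.279). CD3E, a T cell marker, was at least 2-fold below both other controls in control replicate 1 as well, at 23.7, 66.6 and 86.9 counts in the control and 40.1, 23.9 and 12.8 in the knockout libraries. PTPRC, the pan-leukocyte marker CD45, had its highest value, 302 counts, in control replicate 1. It was the 1 leukocyte marker of 7 tested called lower with that trend removed (-0.76, limma adjusted p = 0.013). Of 15 fibroblast and endothelial markers 8 were listed, and they summed to 2013 to 2239 counts in the control and 1244 to 1351 in the knockout libraries. Of 7 tested 4 were called lower in the knockout (14.4% of all genes were), among them the collagen gene COL1A2 (-1.38, limma adjusted p = 1.4e-05) and PDGFRB (-0.48, 0.0046). With the GC and length trend removed 2 of the 7 were called lower (5.95% of all genes). COL1A2 was still among them (-1.70, limma adjusted p = 0.00045) and PDGFRB was not (-0.31, 0.091). CAV1 of the line markers was higher (0.27, limma adjusted p = 0.024) and GATA3 of the luminal genes lower (-0.44, 0.012). With the trend removed neither was called (0.20, limma adjusted p = 0.075, and -0.30, 0.068), while VIM was lower (-0.20, 0.024). The part of other cell types in the cytokine values was not tested, and in such bulk RNA fewer cells that make a transcript and less of it per cell cannot be told apart.

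Promoter sequences were available from RefSeq (GRCh38.p14) for 9 of the 10 genes, LIF being the other. Those of the 4 chemokines and IL6 are shown because they match the same NF-kappaB motif, and that of IL11 because this gene varied least between libraries. Each line holds the 150 bases before the transcription start, 5′ to 3′ on the strand of the gene, with matches in capitals to an NF-kappaB motif (GGANTTTCC) or to an AP-1 motif (TGANTCA), both searched on both strands. The windows are chr4:73869243-73869392 (plus strand), chr4:74099196-74099345 (minus), chr4:74038690-74038839 (minus), chr4:73740419-73740568 (plus), chr7:22727050-22727199 (plus) and chr19:55370464-55370613 (minus).
CXCL1: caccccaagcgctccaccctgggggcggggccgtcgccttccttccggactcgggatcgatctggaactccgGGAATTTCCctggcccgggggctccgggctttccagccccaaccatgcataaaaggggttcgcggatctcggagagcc
CXCL2: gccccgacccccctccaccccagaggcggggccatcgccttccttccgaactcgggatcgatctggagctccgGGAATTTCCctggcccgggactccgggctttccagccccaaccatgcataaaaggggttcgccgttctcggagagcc
CXCL3: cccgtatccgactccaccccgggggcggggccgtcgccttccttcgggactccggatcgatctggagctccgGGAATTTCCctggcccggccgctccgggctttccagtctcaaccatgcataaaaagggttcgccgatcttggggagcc
CXCL8: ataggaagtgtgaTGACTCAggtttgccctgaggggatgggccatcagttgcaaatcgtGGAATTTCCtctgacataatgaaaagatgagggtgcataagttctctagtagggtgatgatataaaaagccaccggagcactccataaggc
IL6: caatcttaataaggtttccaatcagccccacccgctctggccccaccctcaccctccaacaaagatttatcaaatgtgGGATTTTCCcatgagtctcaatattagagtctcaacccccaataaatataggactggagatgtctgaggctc
IL11: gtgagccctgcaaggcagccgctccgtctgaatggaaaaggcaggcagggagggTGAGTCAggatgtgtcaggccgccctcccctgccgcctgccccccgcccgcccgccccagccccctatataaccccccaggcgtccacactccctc
A match to the NF-kappaB motif was found within 250 bases before the start in CXCL1, CXCL2, CXCL3, CXCL8 and IL6. These were 5 of the 9 genes, against 1.79% of 27305 genes with a promoter entry. The matched bases were GGAATTTCC in the 4 chemokines and GGATTTTCC in IL6. The match lay 78 to 70 bases before the start in both CXCL1 and CXCL3, 77 to 69 in CXCL2, 91 to 83 in CXCL8 and 72 to 64 in IL6. The AP-1 letters, which read the same on both strands and do not overlap the other motif, were found in IL1A, CXCL8 and IL11, against 8.06% of genes. CXCL8 alone among the 9 carried both, and CSF2 and IL1B carried neither. In a pairwise alignment the shown bases of CXCL1 were 88.8% identical to those of CXCL2 and 88.1% to those of CXCL3, whereas CXCL8 was 45.5% identical to CXCL1. A match describes letters in this window and is no evidence of binding.

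In the main comparison of all 6 libraries none of the 10 genes passed the test between knockout and control, although IL11 passed in an alternative described below. The limma test on log2(count + 1), fitted over all 14618 genes whose mean reached 10 counts and adjusted by Benjamini-Hochberg at a threshold of 0.05, called 0 of the 10, against 33.2% of all genes tested. At an unadjusted p under 0.05 it gave 1, IL11. edgeR and DESeq2 on the recovered reads also called 0 of 10 (33.6% and 36.6% of all genes), and in the authors' deposited table the adjusted p of the 10 genes ran from 0.103 for IL11 to 0.985 for CXCL8, with 38.5% of genes under 0.05. The value ranges of control and knockout libraries overlapped in all 10 genes, whereas they did not overlap in 46.3% of the genes tested. Log2 fold changes, knockout minus control, had a median of -0.0067 over the 10 genes and of -0.017 over all genes. Of the 10, 5 were above 0 and 5 below, from -0.50 for CSF2 to 0.70 for IL1A. Behind these values the control libraries disagreed among themselves. Control replicate 1 was the lowest of the 3 controls in all 10 genes (35.4% of all genes) and the lowest of all 6 libraries in 9 (15.3% of all genes), CXCL3 being the exception.

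**Figure D1:**
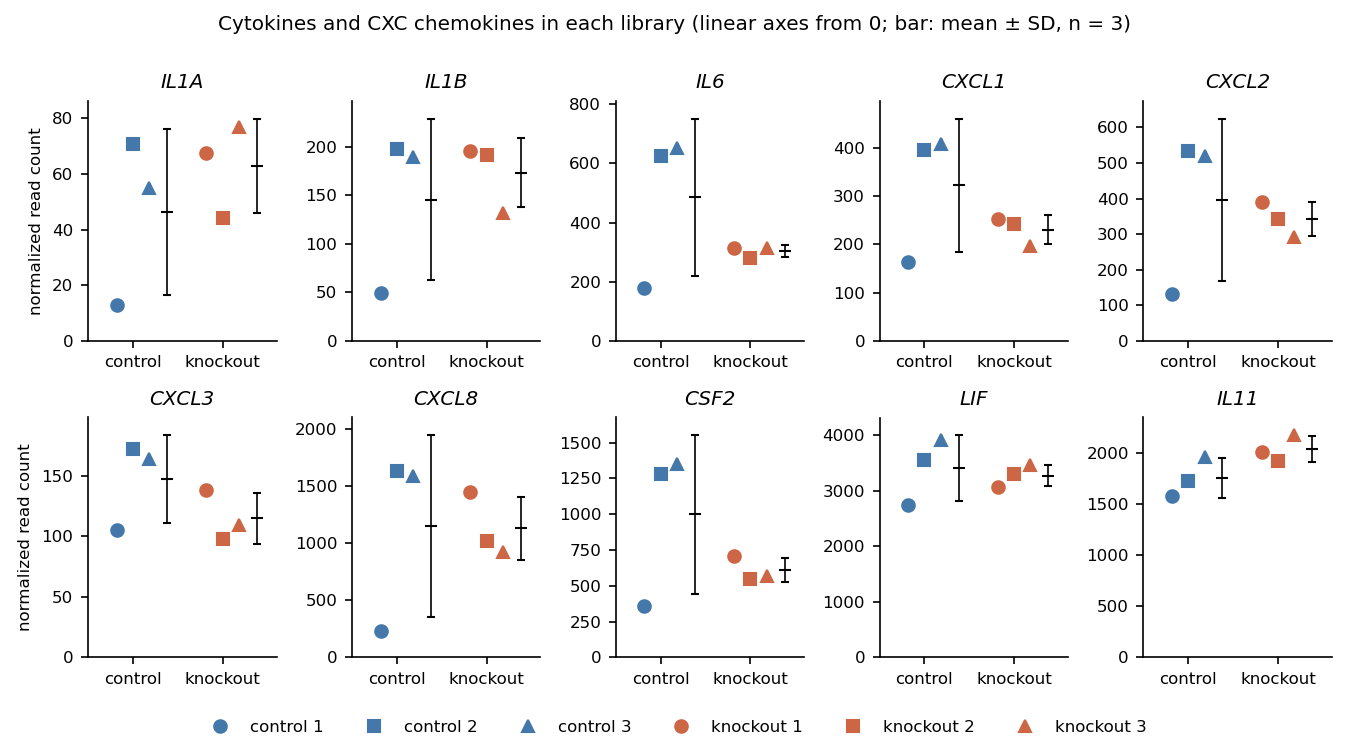
Normalized read counts of the 10 genes in each library, on linear axes that start at 0, with the mean ± SD (n = 3) of each group as a bar. Control replicate 1 (blue circle) lies below the other controls in every panel, for example at 231 against 1631 and 1589 counts for CXCL8.

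IL1A, the cytokine often released by damaged cells, was read at 12.9, 70.9 and 55.1 normalized counts in control replicates 1, 2 and 3 and at 67.6, 44.3 and 77.1 in knockout replicates 1, 2 and 3. Control replicate 1 stood alone at the low end, and the other controls lay within the knockout range of 44.3 to 77.1. The log2 fold change was 0.70 (SE 0.45, limma adjusted p = 0.236). Adding 1 to each count compresses changes of low genes, but with 0.5 added instead the value was only 0.72. Fits to the reads gave smaller values, 0.43 with edgeR and 0.45 with DESeq2, and the authors' deposited table gave 0.44. IL1B, whose product needs proteolytic processing before secretion, was read at 49.6, 198 and 189 counts in the control and 195, 191 and 132 in the knockout libraries. Control replicate 1 was again the lowest, with the control mean of 145 ± 83.2 (SD, n = 3) set by its low first replicate against 173 ± 35.4 in the knockout. Its fold change was 0.47 (SE 0.36, adjusted p = 0.330). The gene lies on chromosome 2 (112829751 to 112836903, minus strand, GRCh38) near IL1A (112773915 to 112784590, minus strand).

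IL6, on chromosome 7 (22725884 to 22732002, plus strand), stood at 180, 624 and 653 normalized counts in control replicates 1, 2 and 3. In the knockout libraries it stood at 315, 279 and 316. The knockout values thus lay close together and between the controls, above the first replicate and below the others. The group means were 486 ± 265 and 303 ± 20.8 (SD, n = 3 each), and the log2 difference was -0.47 (SE 0.31, limma adjusted p = 0.259). CSF2, on chromosome 5 (132073790 to 132076170, plus strand), had the same arrangement. It was read at 361, 1283 and 1351 counts in the control and 706, 549 and 571 in the knockout libraries. Its fold change of -0.50 (SE 0.31, adjusted p = 0.228) did not pass. On the recovered reads edgeR gave -0.73 for CSF2 and -0.69 for IL6, nearer to the threshold (edgeR adjusted p = 0.056 and 0.068). DESeq2 gave -0.71 and -0.67 (DESeq2 adjusted p = 0.327 and 0.337).

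The other gp130 cytokines varied much less. LIF, which sustains stem cell renewal in other settings, was read at 2749, 3560 and 3912 normalized counts in the control and 3068, 3308 and 3459 in the knockout libraries. Control replicate 1 was again lowest, but the controls spanned only 1.42-fold. The log2 fold change was -0.042 (SE 0.11, limma adjusted p = 0.798). IL11, a gp130 cytokine induced by TGF-beta and known from bone metastasis of this line, was read at 1578, 1730 and 1966 counts in the control and 2013, 1921 and 2175 in the knockout libraries. It was the gene nearest to a group difference, since only control replicate 3 and knockout replicate 2 crossed. Its fold change was 0.22 (SE 0.099, adjusted p = 0.101). Once a trend of all genes along GC content and transcript length was removed from each library, it was 0.40 (SE 0.070, adjusted p = 0.0056), higher in the knockout. It was the single member of the 10 called in that fit, against 10% of all genes.

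The CXC chemokines lie within a cluster on chromosome 4, CXCL8 at 73740506 to 73743716 and CXCL1 at 73869393 to 73871242 on the plus strand, CXCL3 at 74036589 to 74038807 and CXCL2 at 74097035 to 74099293 on the minus strand. CXCL8, a neutrophil attractant also called interleukin-8, was read at 231, 1631 and 1589 normalized counts in control replicates 1, 2 and 3 and at 1446, 1016 and 928 in knockout replicates 1, 2 and 3. The first control was far below all other libraries, and every knockout value was below the remaining controls. The group means were nearly equal, 1150 ± 797 and 1130 ± 277 (SD, n = 3 each). On the log scale the fold change was 0.40 (SE 0.46, limma adjusted p = 0.531), while the authors' deposited table gave -0.026 (SE 0.79). Even the sign thus differed between the fits, and the cause of this was not tested. CXCL1, also known as GRO-alpha, stood at 164, 395 and 409 counts in the control and 254, 242 and 196 in the knockout libraries. CXCL2 stood at 133, 535 and 521 in the control and 390, 344 and 293 in the knockout libraries. Both put the knockout libraries between the first control and the others. CXCL3 varied less, at 106, 172 and 164 counts in the control and 138, 97.5 and 109 in the knockout libraries. The log2 fold changes of CXCL1, CXCL2 and CXCL3 were -0.38 (SE 0.25), 0.028 (SE 0.34) and -0.34 (SE 0.22), with limma adjusted p of 0.256, 0.961 and 0.247.

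CXCL1, CXCL2 and CXCL3 are near copies of each other, and the counting could split their reads. Of all 50-base windows of the longest transcript in GENCODE 29, 5.73% in CXCL1, 9.24% in CXCL2 and 3.02% in CXCL3 also occurred in a transcript of another of the 4 chemokines. CXCL8, with the widest range of values of the 4, shared 0 of its 1656 windows. CXCL8 made up 36.5% of the summed counts of the 4 chemokines in control replicate 1 (95% Clopper-Pearson interval of the reads 32.6% to 40.5%). In the other 5 libraries its share was 59.2% to 64.9%, with intervals that began at 57.4% or higher. These intervals cover counting error only. The chemokines were therefore not lower in control replicate 1 by a common factor.

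Within their groups the controls differed by up to 7.08-fold (CXCL8), 5.48-fold (IL1A), 4.04-fold (CXCL2), 3.99-fold (IL1B), 3.74-fold (CSF2) and 3.63-fold (IL6). The knockout libraries differed by at most 1.74-fold (IL1A) and by 1.13-fold in IL6, LIF and IL11. The SD of the log2 values was larger in the control than in the knockout group in all 10 genes, and the difference in spread was not tested. Pooled over both groups, the within-group SD of CXCL8 was 1.17 on the log2 scale, larger than in 99.7% of the genes tested, whose median was 0.144. Counting error alone would give 0.054. The SD of IL1A, IL1B, CXCL2, CSF2 and IL6 exceeded that of at least 97.3% of genes, and that of IL11 (0.129) exceeded 42.8%. The spread between replicates was thus wide in the interleukin-1 genes, IL6, CSF2, CXCL2 and CXCL8, and ordinary in IL11.

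Most of that spread came from control replicate 1. It was at least 2-fold below both other controls in 7 of the 10 genes, IL1A, IL1B, IL6, CXCL1, CXCL2, CXCL8 and CSF2, against 1.38% of all genes tested (201 of 14618). In the other 5 libraries none of the 10 was 2-fold below or above both of its group mates, while 5.21% of all genes were in at least 1 of them. Against the mean of control replicates 2 and 3 on the log2 scale, control replicate 1 was lower by 2.80 in CXCL8 and only 6 of the 14618 genes lay further down. The difference was -2.19 in IL1A, -1.99 in CXCL2, -1.94 in IL1B, -1.86 in CSF2, -1.82 in IL6 and -1.29 in CXCL1. For CXCL3, LIF and IL11 it was -0.67, -0.44 and -0.22. The order therefore ran from CXCL8 and IL1A down to IL11.

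**Figure D2:**
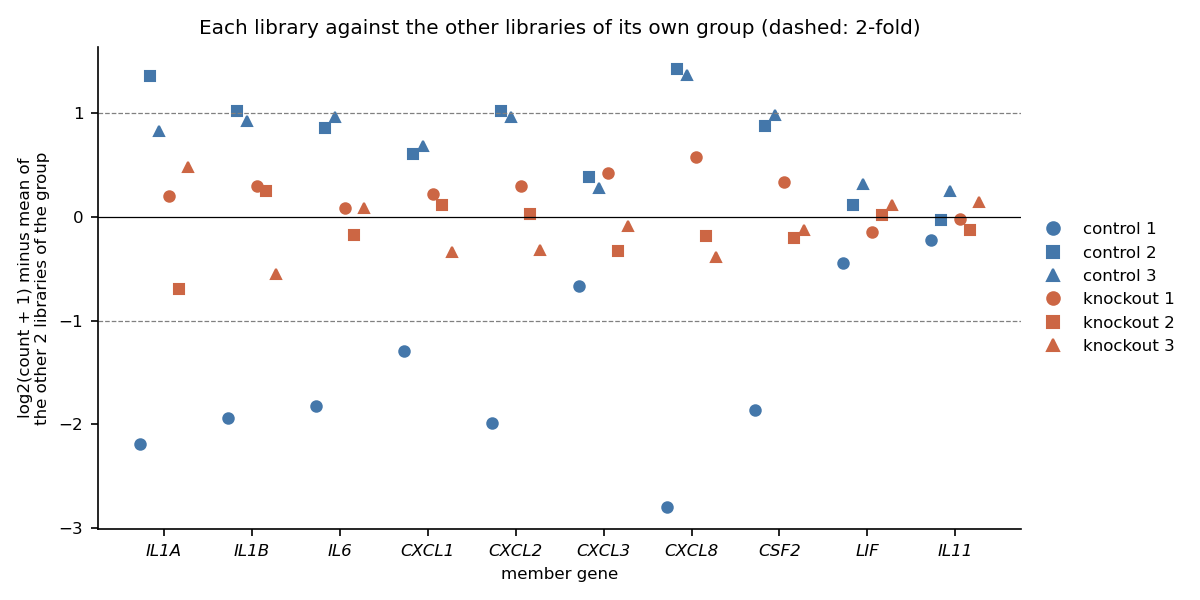
Log2(count + 1) of each library minus the mean of the other 2 libraries of its group, for each gene, with dashed lines at a 2-fold difference. Control replicate 1 (blue circles) reaches -2.80 in CXCL8 and stays within the dashed lines in CXCL3, LIF and IL11, and the knockout libraries (orange) stay within them throughout. Control replicates 2 and 3 rise because the first control is in the mean they are compared with.

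Levels of the genes across the 6 libraries went together. Between IL6, CSF2, CXCL1, CXCL2 and CXCL8, Pearson's r of the log2 values over 6 libraries was 0.81 to 0.99 in 10 pairs. Over the 36 pairs without IL11 the median r was 0.83, and over the 9 pairs with IL11 it was 0.46. All these correlations share the same libraries and the 1 low control, so they are given as a description.

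Leaving out each library in turn showed how much the group comparison rested on 1 control. Without control replicate 1, limma called 6 of the 10 genes lower in the knockout, against 19.6% of all genes, and 0 higher, against 22.6%. CSF2 then fell by 1.12 (SE 0.12, limma adjusted p = 1.1e-08) and IL6 fell by 1.07 (SE 0.14, adjusted p = 1.8e-07). CXCL1 fell by 0.81 (adjusted p = 0.00010), CXCL2 by 0.63 (0.00056), CXCL3 by 0.56 (0.028) and CXCL8 by 0.54 (0.00079). These were the growth factor, IL6 and the whole chemokine group. IL1A (-0.025, adjusted p = 0.953), IL1B (-0.18, 0.464), LIF (-0.19, 0.082) and IL11 (0.14, 0.245) did not pass. Against the mean of control replicates 2 and 3, control was 2.16-fold above the knockout mean in CSF2 and 2.11-fold in IL6, and 1.42-fold to 1.74-fold in the 4 chemokines. All 3 knockout libraries lay below both of these controls in 7 of the 10 genes, LIF included, against 31.9% of all genes.

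The same comparison without any other single library called no member lower. IL11 was called higher without control replicate 3 (0.30, limma adjusted p = 0.039; 14.3% of all genes were higher there), and limma called none of the 10 without control replicate 2 (25.2% of all genes) or without knockout replicate 1, 2 or 3 (14.7%, 17.1% and 33.7%). edgeR without control replicate 1 called the same 6 genes lower (18.3% of all genes). DESeq2 called 5 of them (20.1% of all genes) and left out CXCL8 (-0.50, DESeq2 adjusted p = 0.106). With the GC and length trend removed and control replicate 1 left out, 5 were lower (14.5% of all genes), CXCL8 at -0.93 (limma adjusted p = 1.7e-08), while CXCL3 was not called (0.091). IL11 was higher in that fit (0.35, adjusted p = 0.00013; 10.2% of all genes). Only 2 controls remain in these fits, and the labels do not say which of the controls stands for the line. Control replicate 1 stood out through the values of these same genes, and leaving it out removes most of their spread. The p-values without it are therefore a description and give no independent support. Whether CSF2, IL6 and the chemokines were lower in the knockout therefore depended on control replicate 1.

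**Figure D3:**
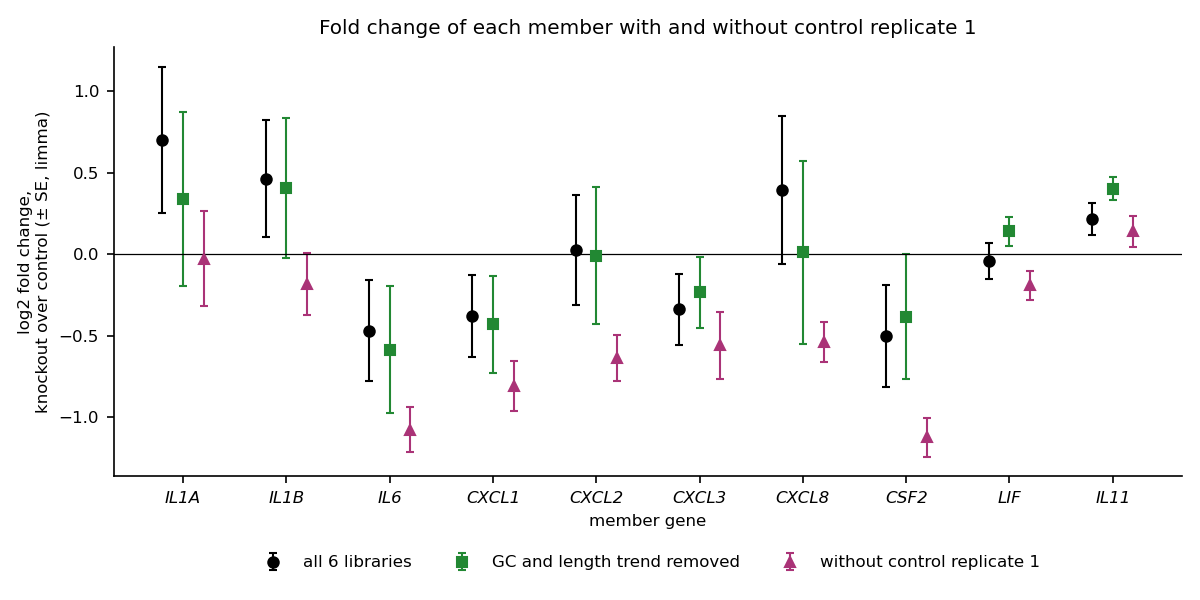
Difference of knockout minus control on the log2 scale, with the limma SE as a bar, for each gene, from all 6 libraries (black), after removal of the GC and length trend (green) and without control replicate 1 (purple). Without that library CSF2 and IL6 move to -1.12 and -1.07 with smaller errors, while IL11 stays above 0 in all 3 fits.

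Levels were compared between genes as normalized reads per kilobase of exon. The length was that of all annotated exons of the gene in GENCODE 29, joined. Which transcripts the cells used was not determined, so the order of genes depends on this length. In the knockout libraries LIF (826 ± 49.7, SD, n = 3), CSF2 (773 ± 108) and IL11 (762 ± 48.0) were the most abundant, and their ranges overlapped. CXCL8 followed at 497 ± 122, and on this length no knockout library reached the level of those 3 genes. Its joined exons, 2274 bases, are longer than its longest transcript, so this gap was not established. CXCL2 (228 ± 32.4), CXCL1 (178 ± 23.3) and IL6 (147 ± 10.1) came next, each overlapping its neighbour. IL1B (55.9 ± 11.4) and CXCL3 (51.8 ± 9.49) overlapped, and IL1A was lowest at 29.7 ± 7.94. In control replicates 2 and 3 the order was led by CSF2, at 1631 and 1717 reads per kilobase against 897 and 986 for LIF. In control replicate 1 LIF (693) and IL11 (591) led, with CSF2 at 459 and CXCL8 at 101. By this measure the line made most transcript of the gp130 cytokines LIF and IL11, of GM-CSF and, except in control replicate 1, of CXCL8.

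**Figure D4:**
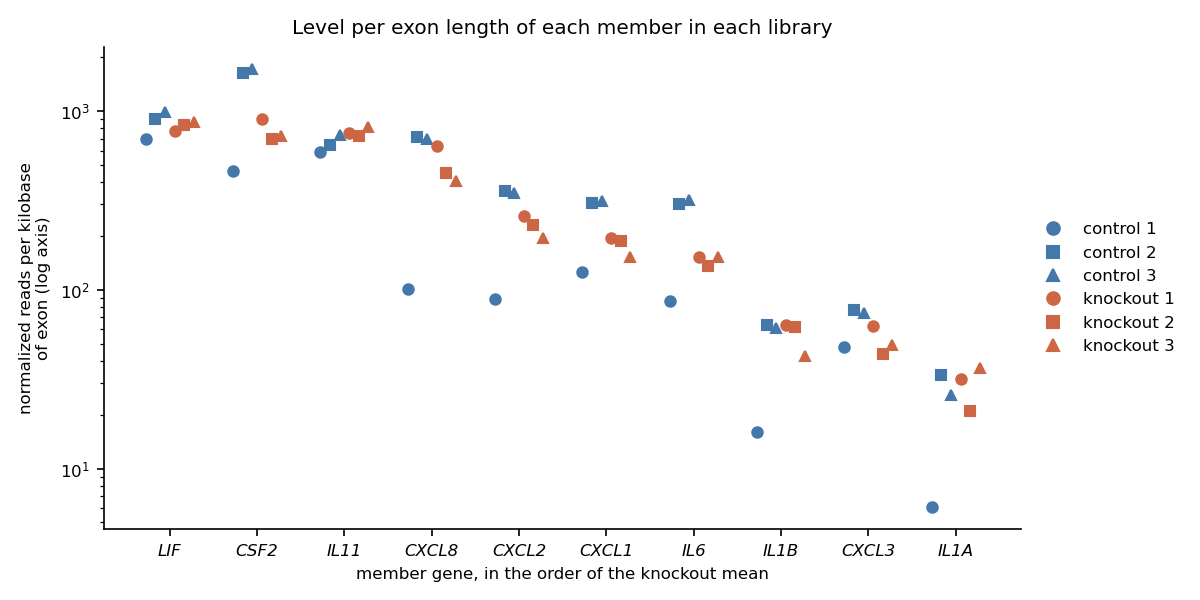
Normalized reads per kilobase of exon of each gene in each library on a log axis, with genes ordered by the mean of the knockout libraries. LIF, CSF2 and IL11 lie at 459 to 1717 in all libraries, and IL1A at 6.09 to 36.3.

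Receptors for some of these cytokines were measured in the same cells. The chemokine receptors CXCR1 and CXCR2, the GM-CSF receptor chain CSF2RA and the decoy ACKR1 were not among the listed genes. Of 15 receptors, decoys and antagonists on a list chosen for this comparison 11 were in the table and 9 were tested. Of these limma called 4 higher and 1 lower (18.9% and 14.4% of all genes), with a median log2 fold change of 0.28. LIFR, the LIF receptor, was read at 924, 894 and 806 normalized counts in the control and 1497, 1511 and 1266 in the knockout libraries. The groups did not overlap, and LIFR rose by 0.70 on the log2 scale (SE 0.11, limma adjusted p = 0.00017). IL6ST, the shared gp130 chain, rose from 4634, 4640 and 4617 to 7258, 7019 and 6131 counts (0.55, SE 0.083, adjusted p = 0.00017). SIGIRR, a negative regulator of interleukin-1 receptors, fell by 0.35 (adjusted p = 0.031). With the GC and length trend removed LIFR stood at 0.22 (adjusted p = 0.061), IL6ST at 0.082 (0.372) and SIGIRR at -0.11 (0.614), and no receptor was called (4.08% of all genes were higher and 5.95% lower). IL1R1, which binds both interleukin-1 proteins, was read at 452 to 461 counts in the control and 452 to 556 in the knockout libraries. Its partner IL1RAP stood at 373 to 578 and at 570 to 717 (0.49, limma adjusted p = 0.018). IL11RA, an IL-11 receptor, stood at 256 to 326 and at 194 to 287 (-0.39, limma adjusted p = 0.088). IL6R (16.5 to 36.5 counts) and CSF2RB (10.7 to 40.1) were low in all libraries.

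Signalling genes went both ways. The counts below are to be read against 18.9% of all genes called higher and 14.4% lower, and 4.08% and 5.95% with the GC and length trend removed. Of 16 genes of interleukin-1 signalling and processing 4 were higher and 6 lower (median -0.18), among them the adaptor TAB3 (0.63, SE 0.10, limma adjusted p = 0.00022) and the kinase MAP3K7, also called TAK1 (0.48, adjusted p = 0.0022). The kinase IRAK1 fell by 0.50 (adjusted p = 0.00041) and GSDMD, the pore-forming gasdermin D, fell by 0.40 (adjusted p = 0.0040). With the trend removed 0 were higher and 2 lower, IRAK1 at -0.28 (adjusted p = 0.025) and the inflammasome sensor NLRP3, named after its value was seen, at -0.58 (0.043). Of 7 JAK-STAT genes 3 were higher and 2 lower (0 and 0 with the trend removed). PTPN11, the phosphatase SHP2, and JAK2 rose by 0.50 and 0.73 (adjusted p = 0.00044 and 0.0028), and SOCS3, a feedback inhibitor of gp130, fell by 0.31 (0.015), as did STAT5A (-0.39, 0.017).

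Of 13 NF-kappaB subunits, kinases and inhibitors 1 was higher and 5 lower (18.9% and 14.4% of all genes; median -0.23), and 0 and 0 with the trend removed. CHUK, the kinase IKK-alpha, rose by 0.54 (SE 0.10, limma adjusted p = 0.00073), while IKBKG, the NEMO subunit, and RELA fell by 0.40 and 0.34 (adjusted p = 0.0080 and 0.0086). Of 10 AP-1 and C/EBP factors 1 was higher and 1 lower (18.9% and 14.4% of all genes; median -0.088), and 1 and 0 with the trend removed. Without control replicate 1 the count was 0 higher and 6 lower (22.6% and 19.6% of all genes), with a median of -0.33. FOSL1, which encodes the AP-1 protein FRA-1, fell by 0.38 (adjusted p = 0.0028), but after trend removal its value was -0.12 (0.183). FOS rose by 0.48 (limma adjusted p = 0.035) and by 0.62 with the trend removed (0.037), and stood at 0.28 without control replicate 1 (0.119). Of 9 proteins that act on cytokine mRNAs 2 were higher and 1 lower (18.9% and 14.4% of all genes; 2 and 3 without control replicate 1), with a median of -0.076. The called genes were RC3H2 and RC3H1, the roquins, at 0.55 and 0.46 (adjusted p = 0.00073 and 0.023) and KHSRP at -0.35 (0.0040). With the trend removed 0 were higher and 2 lower in that list, HNRNPD (-0.51, adjusted p = 0.0013) and ELAVL1 (-0.29, 0.0083), which were named after their values were seen. Of 21 other cytokines and chemokines tested 3 were higher and 4 lower (18.9% and 14.4% of all genes; median -0.23), and 0 and 0 with the trend removed. CCL28 and IL18 were higher by 0.74 and 0.53 (adjusted p = 0.0052 and 0.0058). CX3CL1 was lower at -0.50 (0.010), as was IL32 at -0.47 (0.025). IL32, a proinflammatory cytokine, was read at 1188, 1801 and 2085 counts in the control and 1185, 1085 and 1319 in the knockout libraries. CSF1, which encodes the macrophage growth factor M-CSF and was singled out after its values were seen, was read at 21432, 35868 and 39863 counts in the control and 21720, 22697 and 23930 in the knockout libraries (-0.46, adjusted p = 0.025). Both had control replicate 1 level with the knockout libraries and the other controls above them.

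Control replicate 1 was low in the transcription factor lists too. All 10 AP-1 and C/EBP genes were below both other controls there, and 9 of 13 NF-kappaB genes and 16 of 21 other cytokines, against 35.4% of all genes. The median difference from control replicates 2 and 3 was -0.57, -0.28 and -0.33 on the log2 scale, against 0.016 for all genes and -1.84 for the 10 cytokines. ATF3, IL24, CCL26 and CXCL11, named after their values were seen, were at least 2-fold below both other controls. ATF3, a stress-induced AP-1 family factor, was read at 251, 585 and 567 counts in the control and 405 to 523 in the knockout libraries. The receptors, interleukin-1 signalling genes, JAK-STAT genes and mRNA-binding proteins had medians of -0.12, -0.0088, -0.14 and -0.045. None of their tested genes was at least 2-fold below both other controls. The receptor gene IL1R2, too low to be tested, was read at 2.15, 6.44 and 11.6 counts in control replicates 1, 2 and 3.

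**Figure D5:**
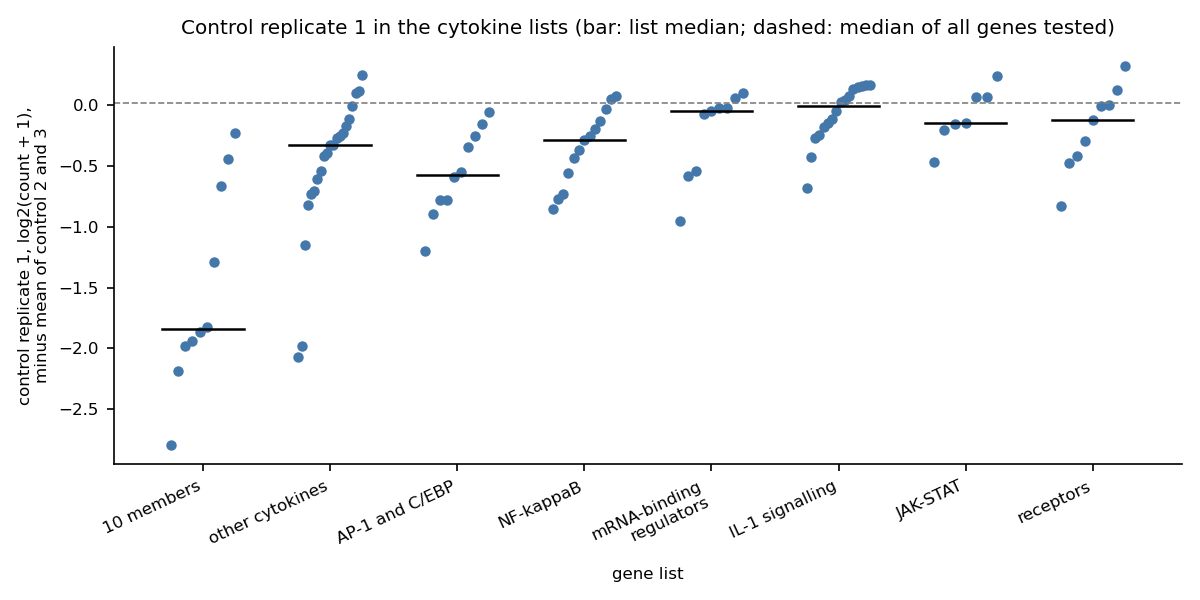
Difference of control replicate 1 from the mean of control replicates 2 and 3 in log2(count + 1), for each tested gene of each list, with the list median as a bar and the median of all genes (0.016) dashed. The 10 cytokines and chemokines reach furthest down (median -1.84), and the AP-1 and C/EBP list follows at -0.57.

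The genes whose pattern was most like the mean of the 10 over all 6 libraries, among 12444 other genes with a mean of at least 50, were SELENOS, TMBIM6, CFLAR, CBLB and SNHG15, with Pearson's r of 0.985 to 0.994. SELENOS, an endoplasmic reticulum selenoprotein, was read at 2889, 4011 and 3979 normalized counts in the control and 3840, 3546 and 3553 in the knockout libraries. CFLAR, an inhibitor of caspase-8, stood at 4962, 6317 and 6588 in the control and 6087, 5870 and 5815 in the knockout libraries. Their range was narrow beside that of CXCL8, and neither passed the test between the groups (limma adjusted p = 0.890 and 0.985). For deviations from the group means the closest genes were TNFRSF9, TCEA3, DNAJB9, SOCS2 and HSPA5, with r of 0.997 to 0.998. TNFRSF9, the costimulatory receptor 4-1BB, stood at 73.3, 195 and 202 counts in the control and 133, 121 and 122 in the knockout libraries. HSPA5, the chaperone BiP of the endoplasmic reticulum, stood at 41395, 67114 and 67937 in the control and 69987 to 72449 in the knockout libraries, and its co-chaperone DNAJB9 at 394, 741 and 761 and at 870 to 996. In both, control replicate 1 was lowest. With 6 libraries and 1 of them far from the rest, high correlations of this kind describe that library above all.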

How the data were processed

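The authors deposited 1 table of 15706 genes. Per the file headers, it gives a normalized read count per library, a signal made by dividing reads by a size factor, and the authors' log2 fold change with its SE, Wald score, p-value and adjusted p-value. The submitters' processing notes name STAR 2.4.0, featureCounts 1.5.0 and DESeq2 1.30.1 on GRCh38.p13. Which annotation, strand setting and filters were used is not given in the sources used here. Every listed gene had at least 1 read in each library.

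All deposited values were whole multiples of 1 step per library (100% within 0.01 of a whole number), which gave back the reads. Groups of 3 libraries each were compared, two-sided, on log2(count + 1) by limma 3.58.1 in R 4.3.3 (trend option on), over the 14618 genes whose mean was at least 10. edgeR 4.0.16 (quasi-likelihood, TMM) and DESeq2 1.42.0 used the recovered reads. For trend removal, splines with 5 terms each of GC content and log2 length (GENCODE 29, 14598 genes) were subtracted per library. Scripts were tested on simulated data.

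All 10 members were named. From each other list, the 2 called genes of lowest adjusted p in each direction were named. Levels were given for some of the receptors, and single genes of the marker lists were named as checks of the cell type. The members and lists were chosen with earlier results of these data known, so they support no finding independently.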

Additional observations from a re-analysis of the deposited data

How the results depend on the processing

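The number of genes called, 4859 with limma on all libraries, was 1463 with the GC and length trend removed and 1313 with that trend removed and a replicate block. Leaving out 1 library gave 2143 to 6168 genes, the lowest without knockout replicate 1 and the highest without control replicate 1. In fits added after the data were seen, leaving out 1 library gave 377 to 3605 with the trend removed, 2224 to 6051 with edgeR and 2728 to 6044 with DESeq2. The other settings (pseudocounts of 0.5 and 5, no filter, a mean of at least 50, quantile normalization, edgeR and DESeq2) left the count within 1.5 times.

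Among the members, the pseudocounts and filters changed no direction or call. CXCL2 turned to -0.061 with quantile normalization, -0.22 with edgeR, -0.21 with DESeq2 and -0.0069 with the trend removed, with or without a replicate block. CXCL8 turned to -0.038 with edgeR and -0.019 with DESeq2, and LIF to 0.14 with the trend removed, with or without the block. Over all fits that left out 1 library, values ran from -0.43 to 1.16 for IL1A, -0.27 to 0.80 for IL1B, -0.69 to 0.37 for CXCL2, -0.93 to 0.87 for CXCL8 and -0.19 to 0.21 for LIF. The cause of these turns was not tested beyond the libraries left out.

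The replicate numbers were not taken as a pairing of the libraries. Deviations of same-numbered libraries from their group means correlated at 0.066, 0.0063 and 0.13 across genes. Libraries numbered 1 and 3 correlated best with their own number, whereas control replicate 2 correlated best with knockout replicate 1 (0.027). Whether some libraries were paired was therefore not settled. The replicate block gave 6265 calls and called IL11 (0.22, limma adjusted p = 0.031), and with the trend removed also (0.40, 0.014). Depth limits IL1A most, with 12 reads in control replicate 1 and a log2 SD of 0.24 from counting alone, against at most 0.131 in the other 9 genes.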
